A study of Mus musculus with 2 samples.

Results

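The nuclear pore complex is a large ring of proteins, the nucleoporins, set in the nuclear envelope, and it is the route by which proteins and RNA pass between nucleus and cytoplasm. Importins carry cargo inward and exportins carry it outward, and the small GTPase Ran sets the direction of transport because its GTP-bound form is concentrated in the nucleus. Erythroid precursors divide rapidly, then condense and expel the nucleus, so nuclear transport has been studied in this lineage. The genes described here are 51 protein-coding mouse genes of that machinery, out of 43346 genes in the tables. They were chosen by name: every protein-coding gene whose GENCODE symbol begins with Nup, Kpna, Kpnb, Ipo or Xpo and a number, and Xpot, plus Tnpo1, Tnpo2, Tnpo3, Cse1l, Ran, Rcc1, Tpr, Rae1, Ndc1 and Pom121. By role they are 25 nucleoporins and their partners, 24 carriers and 2 genes of the Ran cycle.

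RNA left after removal of ribosomal species was sequenced in G1E cells, an immortalized erythroid progenitor line of male C57BL/6J mouse origin that lacks Gata1, the factor that drives red cell maturation. There was 1 group of 2 libraries, labelled biological replicates 1 and 2, each made from 100 ng of RNA with no treatment named, so no condition could be compared with another. Genes held 58094631 expected counts in replicate 1 and 55274368 in replicate 2. Levels are given in TPM, transcript abundance corrected for transcript length and library size, which allows comparison between genes, and mean levels carry the SD of the 2 libraries (n = 2). Gata1 itself held 1862 counts in replicate 1 and 1922 in replicate 2, at 7.10 ± 0.049 TPM. These gene totals do not check the label, since the altered part of Gata1 is not given. All 8 erythroid progenitor markers examined, among them Kit, Tal1 and Tfrc, were at 1 TPM or more in both libraries. None of the 12 lymphoid, granulocyte and macrophage, fibroblast and pluripotency markers was, and their highest mean was 0.345 TPM. The 3 mast cell markers (one of them Kit) and 2 of 3 megakaryocyte markers were also above 1 TPM. Mast cell markers were as high as the erythroid ones: Cpa3 averaged 105 TPM and Cma1 36.2, and the erythroid markers ran from 9.63 to 106. The megakaryocyte markers Itga2b and Pf4 averaged 13.3 and 5.72 TPM.

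Nuclear transport genes were expressed almost throughout. Of the 51 genes, 47 reached 1 TPM in both libraries, whereas 38.6% of 21545 nuclear protein-coding genes did. The median over the 51 genes was 10.7 ± 1.77 TPM, with library medians of 11.9 in replicate 1 and 9.38 in replicate 2. Over all nuclear protein-coding genes the median was 0.055 TPM, and over the detected ones it was 7.01 ± 0.523. In these bulk libraries fewer expressing cells and less RNA per cell cannot be told apart. Nuclear coding genes filled 18.1% of TPM in replicate 1 and 17.0% in replicate 2, the rest lying on genes of other types. With TPM rescaled to those coding genes alone the median of the 51 genes was 61.1.

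**Figure D1:**
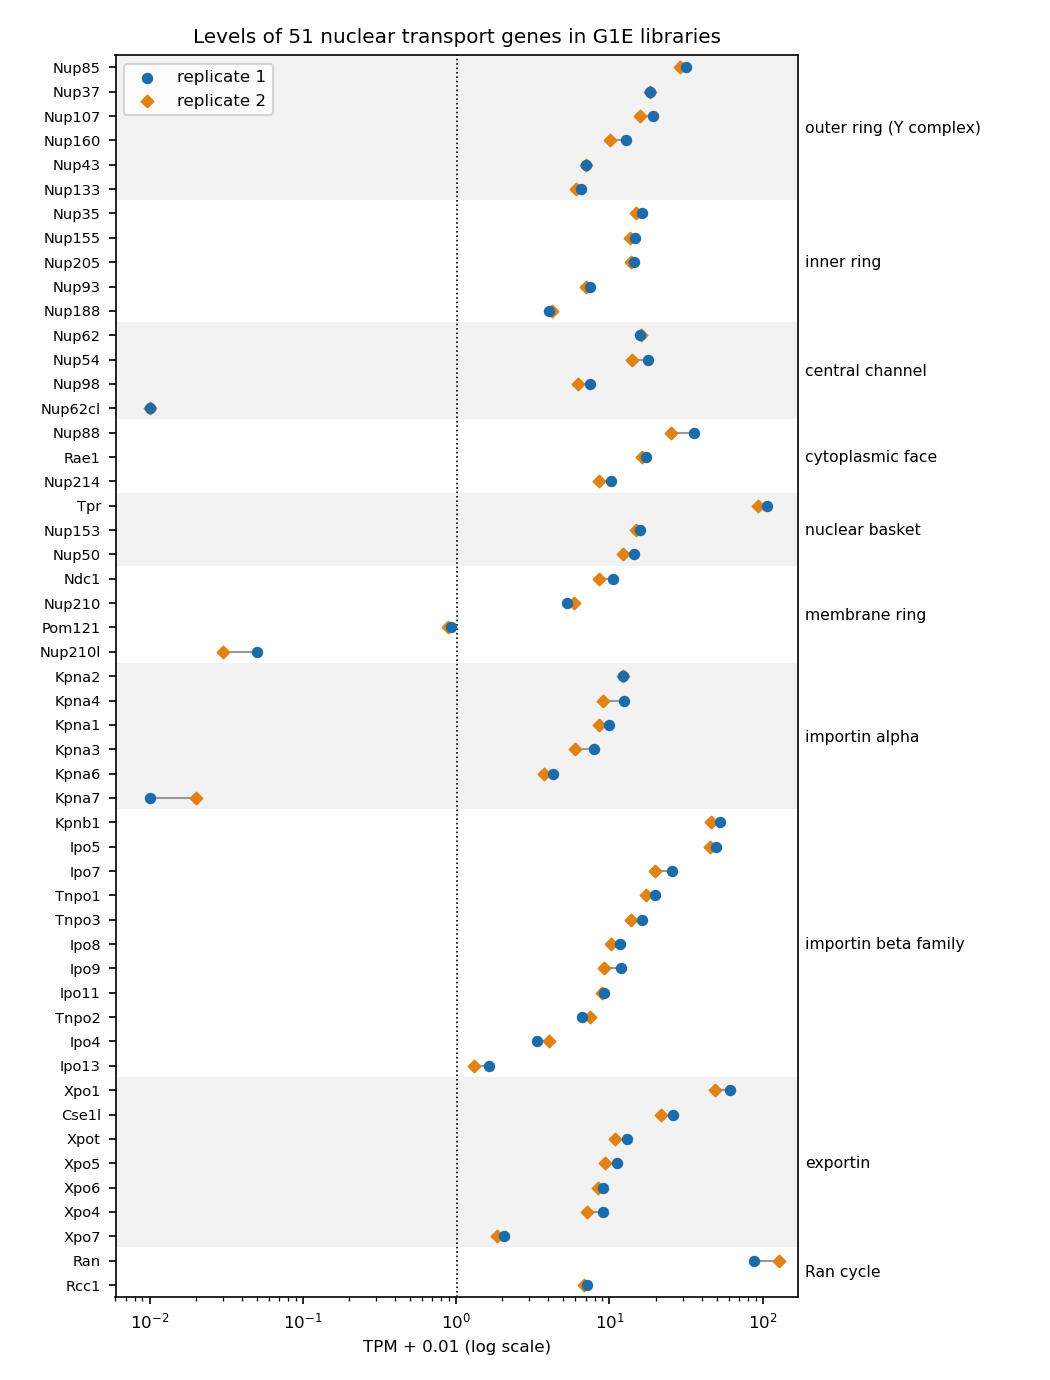
Level of each of the 51 genes in TPM + 0.01 on a log axis, with replicate 1 as circles and replicate 2 as diamonds, grouped by role and ordered by mean within each role; the dotted line marks 1 TPM. Tpr and Ran lie near 100 TPM, most genes lie between 4 and 31 TPM, and Nup62cl, Kpna7, Nup210l and Pom121 lie left of the line.

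In gene TPM, Ran and Tpr stood above all other members. Ran, the GTPase, reached 88.17 TPM in replicate 1 and 127.74 in replicate 2. Tpr, the long coiled-coil protein of the nuclear basket, was at 106.46 and 92.6 TPM in replicates 1 and 2. The 2 genes exchanged the first place between the libraries, and both lay above percentile 98 of nuclear coding genes (98.9 for Ran and 98.8 for Tpr). Xpo1, the exportin that recognizes leucine-rich export signals, came next at 55.1 ± 9.21 TPM. Over coding transcripts the order of these 3 was the same, at 77.1, 65.75 and 53.2 TPM, although the Tpr sum includes short forms annotated as coding. In CPM, which scales counts to the library and ignores length, Tpr ranked 1 of 51 at 963, Xpo1 (696), Ipo5 (620) and Kpnb1 (592) followed, and Ran ranked 5 at 508. Detected members were ranked by mean TPM and each was set against the next, which keeps gaps small by construction. The count of steps is therefore a description and no test. Of 46 neighbouring pairs, 3 differed by more than the limit set by replicate error. Those steps lay between Tpr and Xpo1, between Ipo5 and Nup88, and between Ipo4 and Xpo7. Over coding transcripts, a comparison added after the data were seen, 3 neighbouring pairs again passed, and none of them was the same. Tpr over Xpo1 was then 0.31 on the log2 scale against a limit of 0.47, and Nup88 averaged 15.25 TPM and no longer followed Ipo5. The steps there lay between Ipo5 and Kpnb1, between Kpnb1 and Ipo7, and between Nup210 and Xpo7.

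The outer ring of the pore, or Y complex, coats the membrane on both faces. All 6 members measured were detected, with a median of 14.5 ± 1.87 TPM. Nup85 was highest in gene TPM, at 31.64 TPM in replicate 1 and 28.81 in replicate 2, and Nup133 lowest, at 6.55 and 6.05 TPM. Both places depended on non-coding transcripts. Over coding transcripts Nup85 averaged 14.6 TPM, below Nup37 (18.4) and Nup107 (17.6), and Nup160 was lowest at 5.27. Nup107, which binds Nup133 directly, stood at 19.28 and 15.93 TPM. Nup37 and Nup43, small propeller proteins of the complex, did not overlap in level: Nup37 was at 18.51 and 18.35 TPM, and Nup43 at 7.01 and 7.04. Members of this complex are built into it in fixed proportions, but their RNA levels spanned the range from 6.30 to 30.2 TPM, or 5.27 to 18.4 over coding transcripts alone.

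The inner ring anchors the pore and was narrower in gene TPM, from 4.145 to 15.6. Over coding transcripts it ran from 3.71 to 14.2 TPM, beside 5.27 to 18.4 in the outer ring, and was not narrower as a fold range. All 5 members were detected, and the median was 14.1 ± 0.594 TPM. Nup35 led in gene TPM, at 16.26 and 14.88 in replicates 1 and 2. Nup155 (14.2 ± 0.636 TPM) and Nup205 (14.1 ± 0.587 TPM) were nearly level with it, and over coding transcripts Nup35 averaged 13.9 TPM, just below both. Nup93, which links the ring to the central channel, was at 7.24 ± 0.332 TPM. The paralog of Nup205, Nup188, was lowest at 4.05 and 4.24 TPM.

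Nucleoporins of the central channel carry phenylalanine-glycine repeats that form the permeability barrier. Nup62 reached 15.84 TPM in replicate 1 and 16.05 in replicate 2, and Nup54, its partner in the same trimer, at 17.72 and 14.08. Nup98 stood at 7.52 and 6.25 TPM. Its tables hold 1 transcript of 4051 nt, and a longer transcript of the later annotation, which adds the part that encodes Nup96, was not analysed here. Nup62cl, the relative of Nup62 on chromosome X, had 0 counts in both libraries. Up to 3 counts are possible where 0 were seen, and 3 counts would be 0.0276 TPM in replicate 1 and 0.0265 in replicate 2. Against that limit Nup62 was at least 574-fold higher within replicate 1 and at least 606-fold higher within replicate 2.

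At the cytoplasmic face Nup88 led at 35.84 and 25.28 TPM in replicates 1 and 2, and Nup214, which binds it, was lowest at 10.28 and 8.60. Rae1, an mRNA export factor that binds Nup98, stood at 17.23 and 16.21 TPM. In the basket on the nuclear side, Nup153 (15.3 ± 0.622 TPM) and Nup50 (13.5 ± 1.56 TPM) were far below Tpr. Membrane nucleoporins were the lowest role group, with a median of 3.22 ± 0.187 TPM and 2 of 4 members detected. Ndc1 led at 10.49 TPM in replicate 1 and 8.53 in replicate 2, followed by Nup210 at 5.27 and 5.84. Pom121 was at 0.91 and 0.87 TPM from 825 and 797 counts, just under the threshold in both libraries. Of its exon bases, 11.9% overlap Nsun5 on the opposite strand, and its counting by strand is unknown. Nup210l, a relative of Nup210 known from testis, held 33 and 21 counts, or 0.04 and 0.02 TPM.

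Importin alphas are the adaptors that bind classical nuclear localization signals. The median of the 6 genes was 8.11 ± 1.20 TPM, and 5 reached 1 TPM in both libraries. Kpna2 was highest, at 12.21 and 12.25 TPM in replicates 1 and 2. Kpna4 reached 12.36 TPM in replicate 1 and 9.13 in replicate 2, so the first place depended on the library. Over coding transcripts Kpna4 was first at 10.7 TPM, and Kpna2 averaged 8.87. Kpna1, Kpna3 and Kpna6 averaged 9.26, 6.97 and 4.00 TPM. Kpna7, an importin alpha known from oocytes and early embryos, had 0 counts in replicate 1 and 2 counts in replicate 2.

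All 11 members of the importin beta family were detected, and their median was 11.0 ± 1.17 TPM. Kpnb1, which carries importin alpha with its cargo, was at 52.87 and 46.05 TPM in replicates 1 and 2. Ipo5, a carrier of ribosomal proteins and histones, was beside it at 49.3 and 45.19 TPM. Over coding transcripts Kpnb1 averaged 33.5 TPM and Ipo5 kept 47.2. These 2 genes stood apart from the others, the next being Ipo7 at 22.7 ± 4.16 and Tnpo1, the receptor of many RNA-binding proteins, at 18.6 ± 1.73. Tnpo3, the carrier of SR splicing factors, was at 15.1 ± 1.72 TPM, Ipo8 at 11.0 ± 1.07 and Tnpo2 at 7.08 ± 0.615. Ipo13 was lowest, at 1.64 and 1.30 TPM. Ipo4 reached 3.36 TPM in replicate 1 and 4.03 in replicate 2, but 55.3% of its exon bases lie in Gm49378, a coding gene of the later annotation. The tables hold the transcript Gm49378-201 under Ipo4, with 301.6 counts in replicate 1 and 302.6 in replicate 2, or 13.0% and 10.7% of the Ipo4 TPM.

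All 7 exportins were detected, with a median of 10.3 ± 1.32 TPM. Xpo1 reached 61.65 TPM in replicate 1 and 48.63 in replicate 2, and Cse1l, which returns importin alpha to the cytoplasm, at 26.17 and 21.65. The tRNA exportin Xpot averaged 12.0 ± 1.51 TPM and Xpo5, which exports precursor microRNAs, 10.3 ± 1.32. Xpo7, an exportin required in mouse erythroblasts for nuclear condensation and enucleation, was lowest at 2.05 and 1.84 TPM. Its place depends on length: the only Xpo7 transcript with reads is 15118 nt long, and by CPM Xpo7 at 88.6 and 84.8 ranked 31 of 51. Rcc1, the chromatin-bound exchange factor that loads Ran with GTP, stood at 7.15 and 6.82 TPM.

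Related genes were then set against each other in 14 pairs. For each pair the log2 ratio of TPM + 1 was averaged over the libraries and called where both libraries had the same sign and the mean exceeded 3 standard errors. The standard error came from the pooled replicate SD of nuclear coding genes of like level, which was 0.14 log2 units from 1 to 10 TPM and 0.16 from 10 to 100. All 14 pairs passed, 13 with the first-named gene higher. How often other pairs of detected genes pass the same limit was not computed, so this count shows nothing particular to these pairs. The pseudocount of 1 understates ratios that involve a gene near 0, so the pairs with Kpna7, Nup210l and Nup62cl are read from the levels above.

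Ipo5 exceeded Ranbp6, its paralog, by a log2 ratio of 3.05 ± 0.0093, the SD being that of the 2 libraries. Nup205 exceeded Nup188 by 1.56 ± 0.094, and Nup107 exceeded Nup133 by 1.34 ± 0.11, the value of this last ratio in CPM being 0.52 against a limit of 0.42. Tnpo1 exceeded Tnpo2 by 1.28 ± 0.24, with ratios of 1.44 in replicate 1 and 1.11 in replicate 2. In each of these pairs the lower gene was itself detected. Xpo1 exceeded Cse1l by 1.17 ± 0.052 and Kpna1 exceeded Kpna6 by 1.04 ± 0.026. Kpna3 was lower than its close relative Kpna4, with a log2 ratio of -0.56 ± 0.026 against a limit of 0.46, and this call was lost in each library taken alone. Ran exceeded Rcc1 by 3.75 ± 0.42, the least repeatable ratio of the 14.

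Other ratios depended on the scale. Ipo7 exceeded Ipo8 by 0.98 ± 0.13 in TPM, but the log2 ratio was 0.28 in CPM, which is not past its limit of 0.42. Xpo7 exceeded Ranbp17, its nearest relative, by 0.46 ± 0.073 against a limit of 0.43, and with the posterior mean TPM the ratio of 0.42 no longer passed. The same ratio was 0.72 with a pseudocount of 0.1, 0.71 over coding transcripts and 2.56 in CPM, all past their limits. Ddx19a exceeded Ddx19b, both RNA helicases of mRNA export at the pore, by 0.78 ± 0.15 in TPM, whereas in CPM Ddx19a was lower, at -0.58. Ratios of 3 other pairs of detected genes were over 1.5 times larger in size in CPM: Tnpo1 over Tnpo2 at 2.11, Xpo1 over Cse1l at 1.91 and Kpna3 over Kpna4 at -0.87.

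**Figure D2:**
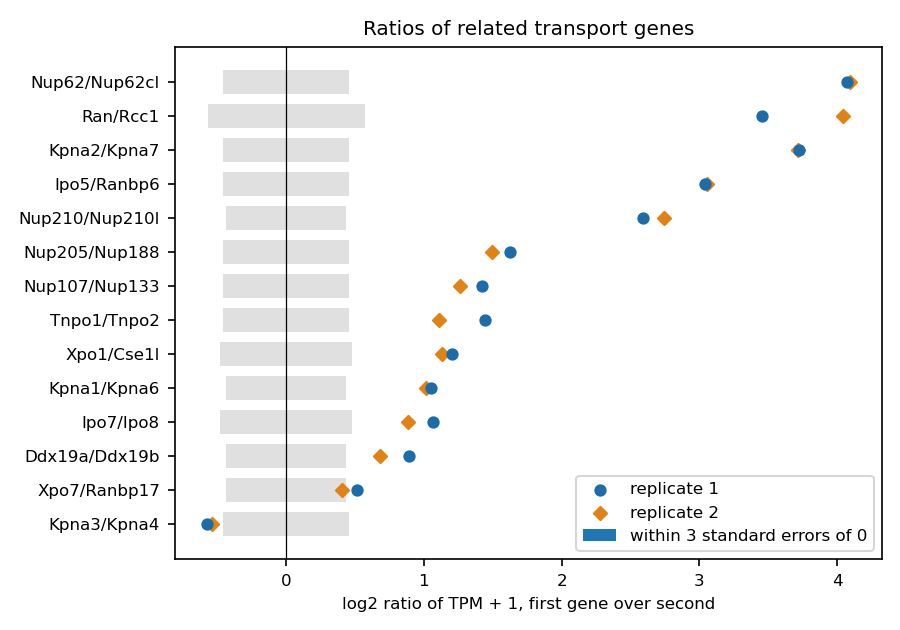
Log2 ratio of TPM + 1 of the first gene over the second in 14 pairs, with replicate 1 as circles, replicate 2 as diamonds and grey bars for 3 standard errors on either side of 0. The ratios of both replicates lie outside the grey bar in 13 pairs, and those of Xpo7 over Ranbp17 straddle its edge at 0.51 and 0.41 (limit 0.43).

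Transcript tables showed which RNA lay behind each level. Of the 47 detected members, 38 had at least 2 transcripts in the tables. The same transcript led in both libraries for 36 of the 38, or 94.7%, beside 88.2% of 6216 detected coding genes. The median share of the leading transcript was 73.8% of the gene's TPM, beside 68.2%. Annotated non-coding or nonsense-mediated decay forms held over 25% of TPM in either library for 18 of the 38 genes, or 47.4%, beside 35.9% of those coding genes. By counts such forms were small: coding transcripts held a median of 96.0% of counts in replicate 1 and 96.7% in replicate 2. Short transcripts weigh more in TPM than in counts because TPM divides by length.

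Ran was the clearest case. Its counts were 28705 in replicate 1 and 28815 in replicate 2, yet its TPM differed by a log2 ratio of -0.53 (replicate 1 over replicate 2). The transcript Ran-203, 229 nt long and annotated as non-coding, held 68.1 and 483 counts, which is 0.237% and 1.68% of Ran counts. In TPM it was at 9.94 in replicate 1 and 51.78 in replicate 2, or 11.3% and 40.5% of the gene. Its effective length was 40.6 and 54.8 nt, because it is barely longer than the mean fragments of 213.2 and 192.5 nt. The coding transcript Ran-201 was at 71.94 and 67.94 TPM. Summed over coding transcripts, Ran had 78.2 TPM in replicate 1 and 76.0 in replicate 2, so almost all of its difference lay in the short transcript.

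Both transcripts are shown from the start codon of Ran-201 (chr5:129020539-129020788 for Ran-203, GRCm38, plus strand). From there the short one copies the coding transcript up to its last 20 bases. Capitals mark the bases where they part: Ran-203 runs on past the exon into the intron, and Ran-201 is spliced to its next exon.
Ran-203: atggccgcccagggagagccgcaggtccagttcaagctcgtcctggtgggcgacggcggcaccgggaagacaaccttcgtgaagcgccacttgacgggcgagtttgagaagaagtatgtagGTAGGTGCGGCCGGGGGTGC
Ran-201: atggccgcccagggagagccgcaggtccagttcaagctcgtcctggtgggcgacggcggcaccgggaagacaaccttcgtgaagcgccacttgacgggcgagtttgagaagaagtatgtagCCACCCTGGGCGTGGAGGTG
Of the 141 bases in each line, the first 121 are shared, and the part of Ran-203 before the start codon was not compared.

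Kpna2 showed the opposite pattern, an equal gene level made of different transcripts. Gene TPM was 12.21 in replicate 1 and 12.25 in replicate 2. The coding transcript Kpna2-201 held 3010 and 2022 counts, or 79.3% and 52.0% of Kpna2 TPM. Kpna2-206, annotated as a target of nonsense-mediated decay, held 166 and 1166 counts, or 4.94% and 33.9%. The deposited posterior SD of the Kpna2-206 count was 54.0 in replicate 1 and 125.7 in replicate 2, so the estimates of the libraries do not overlap within 3 of these SDs. TPM summed over coding transcripts of Kpna2 was 10.4 in replicate 1 and 7.29 in replicate 2, a log2 ratio of 0.52. This gene was singled out after its values were seen.

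Kpna2-206 leaves out an exon of 89 bases (chr11:106992603-106992691, GRCm38, minus strand) that lies in the coding sequence of Kpna2-201. The exon is shown in capitals between 15 bases of each flanking exon, and below it is the junction that joins those exons when it is left out.
Kpna2-201: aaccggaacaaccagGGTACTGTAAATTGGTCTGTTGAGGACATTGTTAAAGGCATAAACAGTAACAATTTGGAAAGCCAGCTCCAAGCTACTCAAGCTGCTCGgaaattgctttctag
Kpna2-206: aaccggaacaaccaggaaattgctttctag
The last 3 bases of the Kpna2-206 line are the stop codon that the annotation gives this transcript; in Kpna2-201 the same bases are read in another frame.

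Nup88 and Nup160 were the only genes whose leading transcript differed between the libraries, since Ran-201 and Kpna2-201 led in both. In replicate 1 the retained-intron form Nup88-210 led with 38.4% of Nup88 TPM, and in replicate 2 the coding form Nup88-202 led with 51.7%. Nup88-210 stood at 13.77 TPM (1016 counts) in replicate 1 and 5.80 TPM (452 counts) in replicate 2. Nup88-202 was nearly level, at 13.45 and 13.06 TPM. Coding transcripts of Nup88 summed to 15.1 and 15.4 TPM, so the gene level of 35.84 and 25.28 TPM differed through non-coding forms. Nup88-210 begins inside an intron of Nup88-202, and 130 bases of that intron set it apart (chr11:70944971-70945100, GRCm38, minus strand), shown in capitals with 15 bases of the exon that follows.
Nup88-210: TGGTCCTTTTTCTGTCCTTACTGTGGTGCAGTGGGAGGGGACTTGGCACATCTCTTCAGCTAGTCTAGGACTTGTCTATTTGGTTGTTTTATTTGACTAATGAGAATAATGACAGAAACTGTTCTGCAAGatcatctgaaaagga
In a library of total RNA, reads in such a stretch can come from unspliced RNA, and their origin was not tested.

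Other genes also had a leading transcript under 50% of TPM. For Nup160 the coding Nup160-201 held 46.3% in replicate 1 and 45.6% in replicate 2, and the non-coding Nup160-202, 658 nt long, held 42.8% and 46.4%. Tpr-201, the full-length basket protein transcript of 7480 nt, held 37.2% and 28.6% of Tpr TPM but 77.9% and 69.8% of its counts. The coding transcripts of Tpr together stood at 65.75 TPM on average, second of the 51 genes behind Ran at 77.1. That place rests on short forms annotated as coding, Tpr-213 (1940 nt) at 14.71 and 16.44 TPM and Tpr-202 (575 nt) at 9.8 and 16.46. Tpr-201 was at 39.64 and 26.45 TPM in replicates 1 and 2, and the long Tpr-203 (7430 nt) at 3.94 and 4.06. Coding transcripts of Xpo1 summed to 59.41 and 46.98 TPM. For Nup214 a fragment of 466 nt, Nup214-210, held 29.8% and 31.4%, and the full-length Nup214-201 held 29.2% and 30.9%. Xpo1-204 held 45.5% of Xpo1 TPM in replicate 1 and 62.6% in replicate 2, with 96.4% and 96.6% in coding forms altogether. For Nup85 the coding forms together held 45.7% in replicate 1 and 51.4% in replicate 2, and the non-coding Nup85-206 held 27.6% and 26.6%. Nup85-201, Nup210-201, Ipo4-201 and Xpo6-213 led their genes with means between 36.7% and 52.3%.

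**Figure D3:**
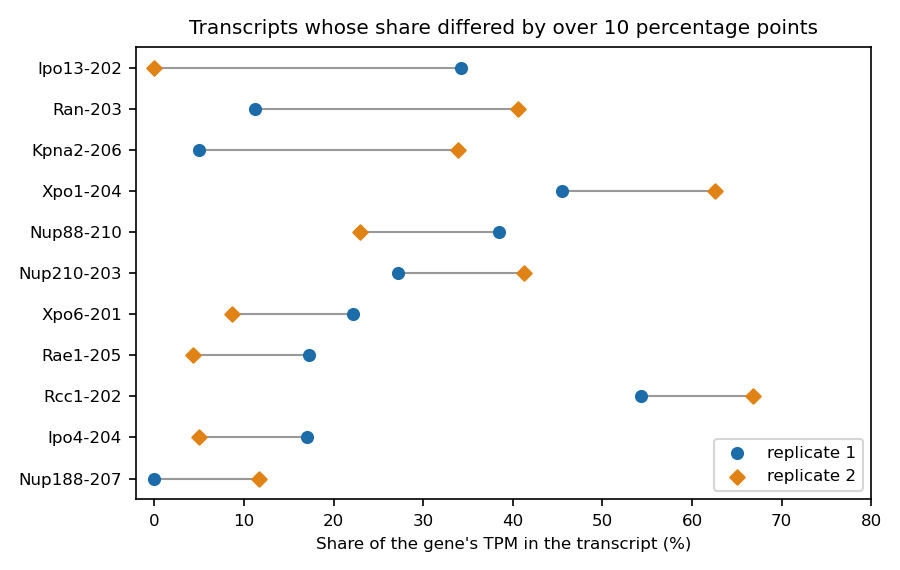
Share of the gene's TPM held by the transcript that differed most, for the 11 genes in which it differed by over 10 percentage points, with replicate 1 as circles and replicate 2 as diamonds. Ran-203 and Kpna2-206 lie higher in replicate 2, and Nup88-210 lies higher in replicate 1; Ipo13-202 was at 34.2% in replicate 1 and 0 in replicate 2.

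Between the libraries none of the 49 members with at least 10 counts in all was called different by 2-fold. Kpna7, with 0 and 2 counts, and Nup62cl, with none, were too low to test. Counts were compared by a two-sided exact binomial test with TMM-scaled library sizes and Benjamini-Hochberg adjustment over 18409 genes. Of these 49 members, 0 passed an adjusted p of 0.05 with a 2-fold difference, beside 14.9% of all genes tested. That share covers genes of all types and depths from 10 counts, and none was computed at the depth of the members. Without the minimum fold 33 members passed, beside 50.1% of all genes tested, and 35 had an unadjusted p under 0.05. Of the 33, 21 were higher in replicate 1, beside 27.3% of all genes, and 12 were lower, beside 22.8%. All 33 were among the 46 members with a mean of 1000 to 100000 counts, and 68.2% of the 6668 nuclear coding genes in that range passed too (34.2% higher and 33.9% lower in replicate 1). The test compares 2 libraries and knows counting error alone, so at this depth it calls differences of a few percent.

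The differences were small in the 49 members tested. The log2 count ratio of replicate 1 over replicate 2 ran from -0.32 for Tnpo2, with 5214 and 5978 counts, to 0.52 for Nup210l, with 33 and 21 counts. Tpr had the highest ratio among detected members, 0.28, from 62440 and 47058 counts. Of the 49 members, 28 were higher and 21 lower in replicate 1, beside 7557 higher and 6543 lower among 14100 nuclear coding genes tested. By role, 6 of 7 exportins were higher in replicate 1 and 5 of 5 inner ring genes were lower, with median ratios of 0.12 and -0.051. Among these, Xpo7 at 0.011 and Xpo6 at -0.0028 were near 0, and 1 inner ring gene, Nup155, passed an adjusted p of 0.05 in the exact binomial test. The difference between the role groups was not tested. Over the 49 tested members the median was 0.026, and over nuclear coding genes with 1000 to 100000 counts it was 0.00033. The biological coefficient of variation, the spread between libraries beyond counting error, was 6.82% over 49 members and 16.1% over 13335 genes by edgeR. DESeq2 instead fits a trend of dispersion on mean count. As a coefficient of variation, the median of that trend was 10.1% at the counts of the members and 13.0% at those of all genes. The trend depends on mean count alone, so it does not measure the members' own spread.

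**Figure D4:**
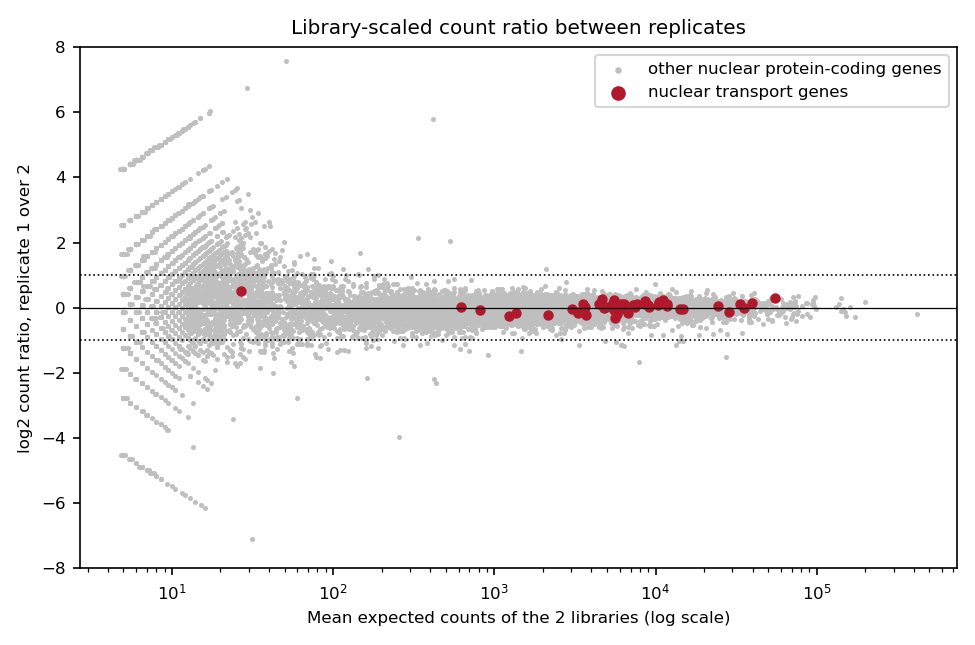
Log2 count ratio of replicate 1 over replicate 2, scaled by library, against the mean count on a log axis, for nuclear transport genes (red) and other nuclear protein-coding genes (grey); dotted lines mark 2-fold. All red points lie between -0.32 and 0.52, within the dotted lines.

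TPM ratios carried the additional effect of transcript lengths. The pooled replicate SD of log2(TPM + 1) was 0.13 over 47 detected members, beside 0.15 over 8310 nuclear coding genes. Over coding transcripts alone it was 0.11 for 46 members, beside 0.15. The median nuclear coding gene was higher in replicate 1 by a log2 TPM of 0.14, and member ratios are best read against it. Relative to counts, Ran lay farthest below the others and Nup88 farthest above, whereas over coding transcripts Ran lay among the others, Nup88 and Tpr lay below them and Kpna2 lay above.

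**Figure D5:**
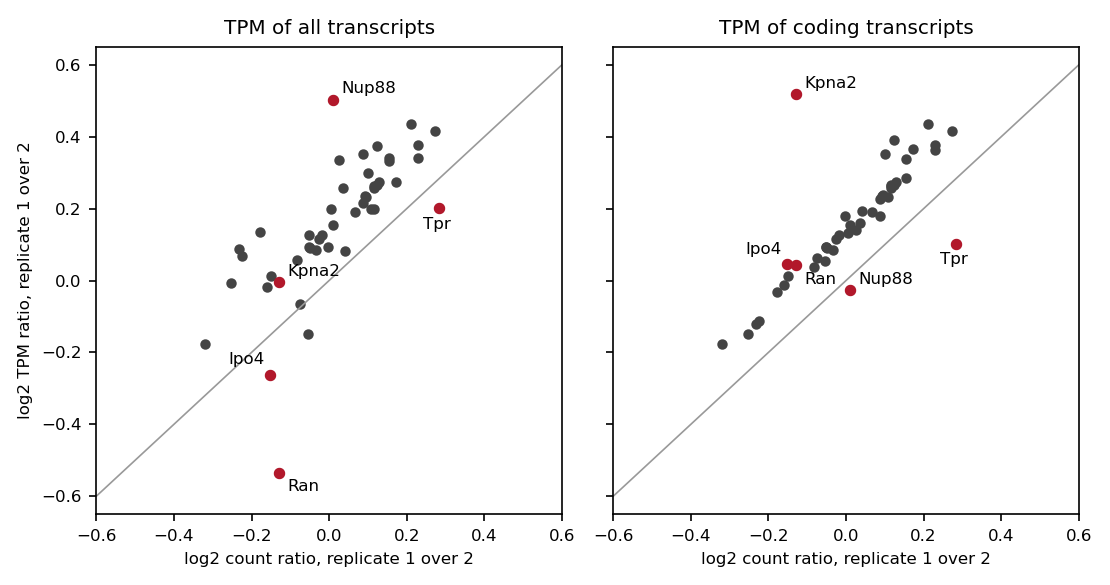
Log2 TPM ratio of replicate 1 over replicate 2 against the log2 count ratio for 47 detected members, with TPM of all transcripts (left) and of coding transcripts (right); the line marks equal ratios. On the left Ran lies at -0.53 and Nup88 at 0.50, and on the right Kpna2 lies at 0.52.

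Promoters were read for 41 of the 51 genes from RefSeq (GRCm38.p6), as 250 bases before to 50 after each start. Motifs were searched as fixed strings on both strands, and no string contains another. Member shares cover all 41 genes, among them the undetected Kpna7, Nup62cl and Pom121, so they are not limited to detected genes as the comparison set is. The NRF1 motif was in 5 of 41 members (Nup107, Nup50, Nup62, Ran and Xpo5), or 12.2%, and in 2.86% of 6682 detected coding genes and 1.07% of all genes. CACGTG, the E-box that MYC binds, was in 8 members, or 19.5%, beside 13.0% of detected coding genes. The GATA string AGATAA was in 3 members, Ipo5, Kpna7 and Tnpo3, or 7.32%, beside 7.41% of detected coding genes. GGGCGG, the SP string, was in 73.2% of members and 71.8% of detected coding genes, CCAAT in 51.2% and 44.6%, and the ETS string CGGAAG in 36.6% and 42.8%. The YY1 string AAGATGGC was in 9.76% and 6.72%, TATAAA in 9.76% and 7.32%, and the CRE string TGACGTCA in 4.88% and 4.09%. These matches describe letters and no binding was measured.

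Promoters of Ran, the member with the highest level, and of Kpna7, which had at most 2 counts, are shown as examples. They stand for no trend: G and C content was 59.7% for Nup62cl, which had no counts, and 50.7% for Nup160, which was detected. A relation of promoter content to level was not tested. The Ran window (chr5:129019906-129020205, plus strand) is 82.0% G and C and holds the NRF1 motif, the E-box and 4 SP strings. The Kpna7 window (chr5:145009587-145009886, minus strand) is 46.7% G and C and holds 1 CCAAT and 1 GATA string. Capitals mark the strings found, on either strand.
Ran: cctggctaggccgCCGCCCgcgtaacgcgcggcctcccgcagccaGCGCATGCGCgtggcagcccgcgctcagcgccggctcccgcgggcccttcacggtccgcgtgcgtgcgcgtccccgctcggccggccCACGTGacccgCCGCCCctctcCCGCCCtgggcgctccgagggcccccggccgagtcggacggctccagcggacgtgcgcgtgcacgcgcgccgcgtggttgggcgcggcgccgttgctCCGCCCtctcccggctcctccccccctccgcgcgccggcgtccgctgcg
Kpna7: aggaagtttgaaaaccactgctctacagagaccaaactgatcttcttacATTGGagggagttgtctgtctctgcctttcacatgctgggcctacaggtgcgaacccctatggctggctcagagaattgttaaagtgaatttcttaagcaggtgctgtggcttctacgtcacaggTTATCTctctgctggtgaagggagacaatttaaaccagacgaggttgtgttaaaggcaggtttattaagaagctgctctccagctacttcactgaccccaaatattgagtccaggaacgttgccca
Median G and C content was 63.7% over the members' promoters, 63.8% over those of detected members and 61.0% over those of detected coding genes.

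Transport genes outside the naming rule were measured beside them. Their median was 10.6 ± 0.555 TPM, and 37 of 38 reached 1 TPM in both libraries. Ranbp1, a cofactor of Ran, led at 79.94 TPM in replicate 1 and 70.38 in replicate 2, and Rangap1, which triggers GTP hydrolysis by Ran, stood at 21.06 and 19.55. Among pore proteins Sec13 of the Y complex was at 31.3 and 31.6 TPM, Ranbp2 of the cytoplasmic filaments at 25.74 and 20.22, and Nupl1, the third protein of the Nup62 trimer, at 17.18 and 15.28. Pom121l2 had 0 counts in replicate 1 and 2 in replicate 2. All 17 mRNA export genes were detected, from Alyref, an adaptor of the export receptor, at 49.4 ± 3.53 TPM to Nxt2 at 1.31 ± 0.035.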

How the data were processed

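Each library came with a gene table and a transcript table, made by the authors on mm10 with GENCODE release M4, per the deposited read-me texts. Per the file headers, the deposited expected counts are estimated reads with shared reads divided, the deposited TPM and FPKM values divide by an effective length, and the deposited percent is a transcript's share of its gene. No source used here gives the aligner, quantifier or strand setting.

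Names, types and coordinates came from GENCODE M21 (same assembly), matched by gene identifier; Nup62, whose identifier changed, was matched through its transcript. The members and lists were chosen with earlier results of these data known. Rows without a gene (3.44e-05% and 6.8e-05% of counts) were left out. Detection was 1 TPM in both libraries, pseudocount 1. Named genes were each role's highest and lowest members, undetected members, paired genes, and genes with a leading transcript that differed or held under 50%; no member had shared-read posterior SD above 0.05 of its mean. Counts were rounded for edgeR 4.0.16 (TMM, dispersion) and DESeq2 1.42.0 (alternative); genes needed 10 counts. Tests used scipy 1.17.1, and were tested on simulated data. The labels give no separate source for the 2 cultures beyond the replicate number, so the spread between them may be technical; the p-values of the binomial test reflect counting error alone. Alternatives were other thresholds, pseudocounts, scalings, posterior means, CPM, coding transcripts and single libraries. The planned count of repeats in the proteins was not run. Floors of 3 counts cover counting error only.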

Additional observations from a re-analysis of the deposited data

Results flagged for a closer look

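Kpna2-ps, a processed pseudogene of Kpna2 on chromosome 17 that the choice of coding genes leaves out, held 70 expected counts in replicate 1 and 46 in replicate 2, above the 3 counts that a count of 0 allows. Its level was 0.31 and 0.20 TPM, beside 12.2 TPM for Kpna2 itself in both libraries. It stands here because it holds counts outside the genes compared, and whether these are reads of Kpna2 itself was not tested.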

How the results depend on the processing

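The median level of the 51 members, 10.7 TPM, was 61.1 with TPM rescaled to nuclear coding genes, 32.0 in FPKM and 8.87 over coding transcripts, an alternative chosen after seeing the data. Coefficients of variation over all genes reached 29.9% with no filter on low counts. Without the minimum fold, 33 members differed between the libraries in place of 0. In CPM the log2 ratio of Ipo7 over Ipo8 was 0.28, no longer called, and that of Ddx19a over Ddx19b reversed to -0.58. With posterior mean TPM, Xpo7 over Ranbp17 was 0.42, no longer called, whereas in CPM it was 2.56. In single libraries Kpna3 over Kpna4 ran from -0.58 to -0.54 and Xpo7 over Ranbp17 from 0.41 to 0.51, none past its limit, which is wider for 1 library. The median share of leading transcripts was 73.2% and 78.1% in single libraries. For the 2 ratios in CPM the change follows from leaving out length. Another 145 recomputed values were counted as unchanged. Among them, at a threshold of 5 TPM, detected members fell from 47 to 42. Detected transport genes outside the naming rule fell from 37 to 26 at that threshold. The remaining values that moved were medians of single role groups. No paired analysis was possible because there is 1 group of samples.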

Other observations

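Some small RNA genes that lie inside transport genes had levels of their own, and most of the others held 0 counts in both libraries. Snora23, a small nucleolar RNA within Ipo7, held 143 counts in replicate 1 and 426 in replicate 2, while Ipo7 held 12574 and 9844. Snora73a and Snora73b, within the bounds of Rcc1, held 350 and 410 counts in replicate 1 and 750 and 835 in replicate 2, while Rcc1 held 2089 and 2240. A small Cajal body RNA within Kpna4, Gm22009, held 1253 and 1224 counts, while Kpna4 held 9574 and 7587. None of these small RNAs overlaps an exon of the transport gene it lies within. Snhg3, a non-coding gene that overlaps Rcc1 exons on the same strand, held 878 counts in replicate 1 and 1120 in replicate 2. Exons of 14 members overlap another gene on the opposite strand, Tnpo2 by 10.6% of its exon bases. Exons of 9 members overlap another gene on the same strand. The effect of these overlaps on the counts was not tested.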
